A study of Mus musculus with 2 samples.

Results

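CCGG deserts are stretches of the mouse genome in which methylRAD sequencing listed no methylated CCGG position, and the sites described here are the CCAGG and CCTGG positions that were listed inside them. A site was taken when it lay on chromosomes 1 to 19, was listed in either of 2 libraries and was more than 10000 bp from every CCGG position listed in either library. The rule kept 4023 of the 558632 listed CCAGG and CCTGG positions of these chromosomes. The sites were thus chosen by the listings, that is by measured counts, so the distance from CCGG, the listing of each site and everything computed from their counts are a description and were not tested. Merging each site into the interval between its flanking CCGG positions gave 2736 deserts, of which 2732 had a CCGG position on both sides and 4 lay beyond the first or last listed CCGG position of a chromosome.

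The libraries came from F9 cells, a mouse embryonal carcinoma line that grows as stem-like cells and forms endoderm-like cells when treated with retinoic acid. One library (UD) was made from undifferentiated F9 cells and the other (D4) from F9 cells at day 4 of differentiation, which was induced with 1 µM retinoic acid in dishes of low attachment. Genomic DNA was cut with FspEI, short fragments were taken from a gel and adaptors were ligated, and the descriptions place both libraries in the same sequencing run and lane. The labels also carry the word untreated for both libraries. With 1 library per group there were no replicates, and every difference is a difference between 2 libraries with no replicate check.

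MethylRAD uses FspEI, an enzyme that cuts at a fixed distance from a methylated cytosine preceded by another cytosine, so that a palindromic site methylated on both strands releases a short fragment that can be sequenced. CCGG holds a CpG, the context in which mammalian DNA is mostly methylated and which the maintenance enzyme DNMT1 copies at each division. CCAGG and CCTGG are the same palindrome read from opposite strands, and their inner cytosine is followed by A or T. Methylation outside CpG is not maintained in this way. It is laid down by the de novo enzymes DNMT3A and DNMT3B and is best known from embryonic stem cells, oocytes and neurons.

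Desert sites could be seen at base level where they fell in the promoter windows of RefSeq (GRCm38.p6, 250 bases before to 50 bases after a transcript start). Of the listed positions of all 3 motifs that fell in such windows, 98.9% carried the listed motif at exactly the listed position, including 5590 of 5590 CCGG positions with full-match alignments. Of CCGG positions with another alignment type, 7 of 103 did, and such positions also set borders of deserts. The full-match positions of the tables are therefore those of GRCm38, the build named in the submitters' processing notes. Windows were given for all of these chromosomes except 18. Among the desert sites, 10 lay in a promoter window and all 10 carried their motif. Shown are the 4 whose surrounding 37 bases lay before the transcript start and in no annotated gene body. They show what a listed non-CpG site looks like far from any listed CCGG. Capitals mark the motif.
Gm30225 promoter site, chr2:43128584-43128620, plus strand: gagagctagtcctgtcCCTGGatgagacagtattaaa
Gm30225 promoter site, chr2:43128687-43128723, plus strand: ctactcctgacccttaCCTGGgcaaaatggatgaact
Gm20362 promoter site, chr6:79032004-79032040, plus strand: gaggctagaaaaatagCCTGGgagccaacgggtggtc
Olfr1384 promoter site, chr11:49513371-49513407, plus strand: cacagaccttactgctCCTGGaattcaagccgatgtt

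All 4 of these sites read CCTGG, and the windows of Gm20362 and Olfr1384 also held a CCG or CGG triplet beside the motif. Olfr1384 encodes an olfactory receptor. Its site, 227 bp before the start, had 5 counts in the UD library and was unlisted in the D4 library. The site 18 bp before Gm20362, a long non-coding RNA gene, had 12 counts in the D4 library and was unlisted in the UD library. The 2 sites before Gm30225, another long non-coding RNA gene, lay in 1 desert and went opposite ways. The one 136 bp before the start had 6 counts in the UD library alone, and the one 33 bp before it had 10 counts in the D4 library alone. None of the 4 was listed in both libraries. Over the 9 desert sites with a complete window, 4 held CCG or CGG within 16 bases of the motif on either side. The same held for 18.7% of 1173 unlisted CCAGG and CCTGG motifs more than 10000 bp from CCGG and for 60.8% of 604 listed sites 1001 to 10000 bp from CCGG. Over all 35153 such windows in promoters it was 42.2%. Both strands are covered because CCG and CGG are reverse complements.

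The UD library held 20550450 counts and the D4 library 21291239, of which 16687588 and 15705436 were at CCGG sites. The lowest listed count was 5 in both libraries, so an unlisted site had 0 to 4 counts and cannot be read as unmethylated. Levels are counts per 1000000 CCGG counts of the library. At these totals 3 counts corresponded to a level of 0.18 in UD and 0.19 in D4, and the listing minimum of 5 counts to 0.30 and 0.32.

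Listed non-CpG sites became rare with distance from CCGG. Within 100 bp of a listed CCGG position there were 1298 listed CCAGG and CCTGG sites per megabase, and at 101 to 1000 bp there were 296. The density was 102 per megabase at 1001 to 10000 bp and 23.5 per megabase beyond 10000 bp. It went on decreasing inside the deserts. It was 31.6 per megabase at 10001 to 15000 bp, 24.5 at 15001 to 20000 bp, 15.6 at 20001 to 50000 bp and 2.81 at more than 50000 bp, where 63 sites were listed. The D4 library listed more desert sites per megabase than the UD library in each of these 4 distance classes, 25.2 against 12.7 in the first and 2.21 against 1.33 in the last.

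**Figure D1:**
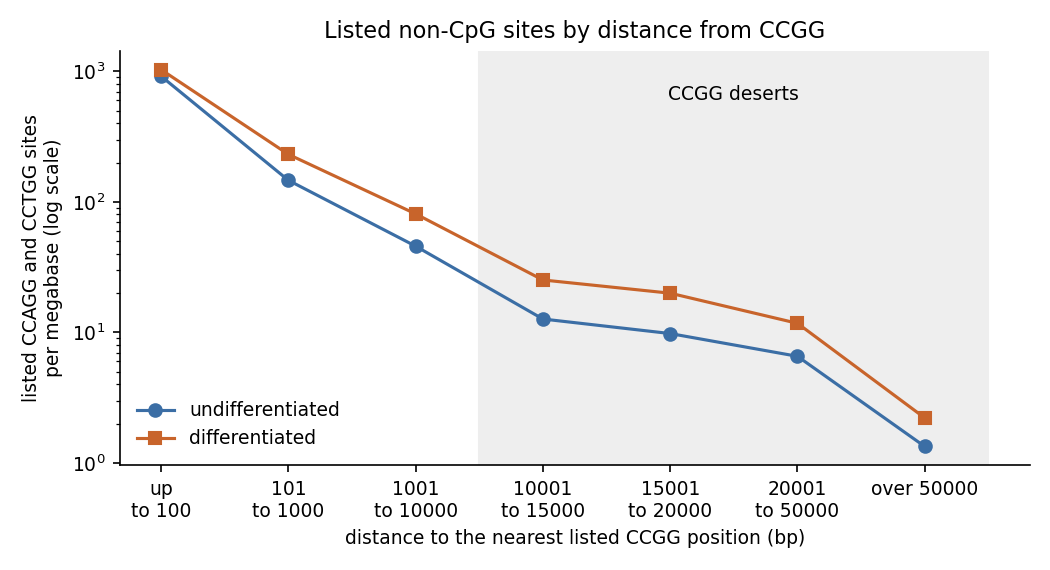
Listed CCAGG and CCTGG sites per megabase (log axis) against distance to the nearest listed CCGG position, for the UD library (circles) and the D4 library (squares), with the desert classes shaded. Both lines descend at every step, from 918 and 1031 sites per megabase within 100 bp to 1.33 and 2.21 beyond 50000 bp, and the squares lie above the circles throughout.

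The motif itself could be counted only in promoters, and its number per window was not taken by distance from CCGG. Promoter windows anywhere between the flanking CCGG positions of deserts held 1.13 CCAGG or CCTGG motifs per window. The other promoter windows held 1.36, and windows in any CCGG gap over 20000 bp held 1.02. The share of motifs that were listed was taken by distance, and it fell. Among reference CCAGG and CCTGG motifs in promoter windows, 34.0% of 5427 were listed within 100 bp of a listed CCGG position (95% exact binomial interval 32.8% to 35.3%). The share was 9.86% of 18029 at 101 to 1000 bp and 4.68% of 14468 at 1001 to 10000 bp. Beyond 10000 bp it was 10 of 1294, or 0.77% (0.37% to 1.42%). These intervals cover counting of motifs only. Whether the short reads of a desert site could be placed uniquely in the genome was not tested.

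Deserts had a median length of 33627 bp, with an interquartile range of 27215 to 44236 bp. The shortest was 20171 bp, just above the 20000 bp that the rule requires. Together the 2732 deserts with a CCGG position on both sides covered 118 megabases, or 4.92% of the span from the first to the last listed CCGG position of chromosomes 1 to 19. The median gap between adjacent listed CCGG positions was 1325 bp. In all, 13699 gaps were longer than 20000 bp and could have held a desert site, and 19.9% of them did. Longer gaps held a site more often, 11.4% of gaps of 20001 to 30000 bp, 32.6% at 30001 to 50000 bp, 45.6% at 50001 to 100000 bp and 55.0% at 100001 to 500000 bp. Their density of sites, counted over the bases more than 10000 bp from CCGG, went the other way. It was 36.1 sites per megabase in the shortest class, 28.5 and 18.9 in the next classes, 7.21 at 100001 to 500000 bp and 1.23 in the 12 gaps over 500000 bp. The bases were counted from coordinates, so any unsequenced bases of the assembly were included, here and in the densities by distance and by chromosome. Their effect on the densities was not tested.

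**Figure D2:**
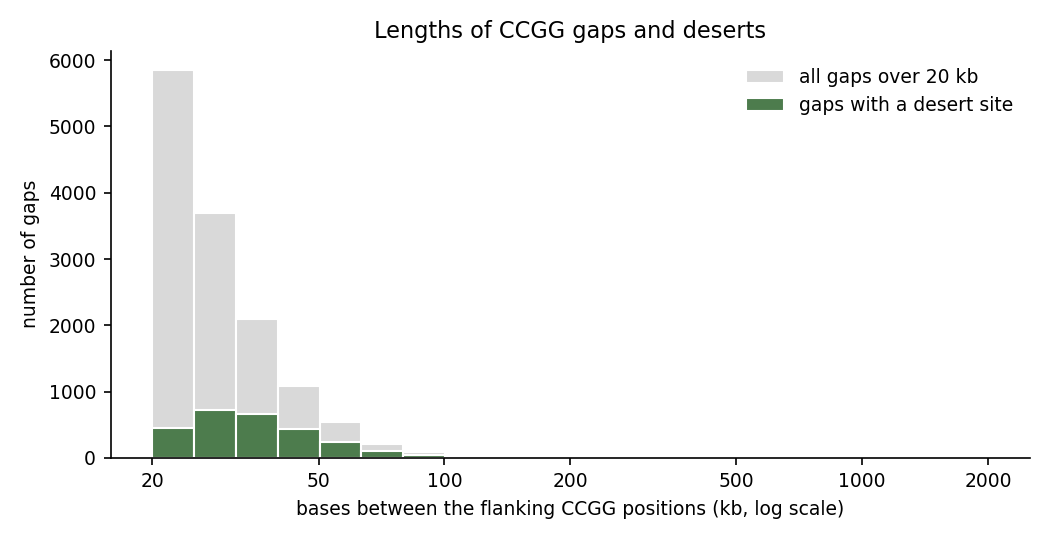
Number of gaps between adjacent listed CCGG positions (grey) and of gaps that held a desert site (green) by gap length in kilobases, on a log axis from 20 kb upward. Most gaps lie below 50 kb, the tallest bar at the left has 453 deserts among 5850 gaps, and 84 deserts are longer than 100 kb.

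Most deserts held few sites. There was 1 site in 1892 deserts (69.2%), 2 sites in 572 and 3 or more in 272, and the highest number was 25. The median desert had a summed count over both libraries of 10, and 17 deserts reached 100. Sites within 32 bp of each other can be covered by the same read. Such runs numbered 311 and held 648 of the 4023 sites, and in 203 of them all members had identical counts in both libraries. Counts of these neighbours are thus not separate measurements.

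Chromosome 1 had the most deserts, 231 with 319 sites, and chromosome 19 the fewest, 42 with 64 sites. As a share of the span, deserts covered most of chromosome 14, 8.38%, followed by chromosome 7 with 7.0%. They covered least of chromosome 19, 2.45%, and of chromosome 11, 2.71%. Per listed CCAGG and CCTGG site of the chromosome, 1.44% were desert sites on chromosome 14 and 1.33% on chromosome 3, against 0.35% on chromosome 11. The density inside long gaps ran in another order. It was highest on chromosomes 11 and 19, with 35.5 and 35.3 sites per megabase more than 10000 bp from CCGG, and lowest on chromosome 7, with 14.8.

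A desert lacks listed CCGG positions but need not lack the letters CCGG. Of 928 promoter windows that lay inside deserts, 269 (29.0%) held at least 1 CCGG, 568 in all, against 54.2% of the other 30435 windows. Desert promoters were also lower in GC, with a median of 45% against 53.3%, and had a median of 2 CG dinucleotides per window against 7. These traits were not particular to deserts, since windows in any CCGG gap over 20000 bp had a median GC of 44%, 2 CG and a CCGG in 26.6%. A few were CpG-rich. The windows of Babam2, which encodes a DNA repair complex subunit, and of Phf10 held 11 CCGG each. Those of Kat6b, a histone acetyltransferase gene, and Ube2d3, a ubiquitin-conjugating enzyme gene, held 8 each. Each of these windows lay near a desert border. The nearest listed CCGG was 5890 bp away for Babam2, 3766 bp for Phf10, 4983 bp for Kat6b and 2242 bp for Ube2d3. CpG-rich promoters are usually free of methylation, and an unmethylated CCGG gives no fragment. Whether this is why the CCGG copies of these windows were unlisted was not tested. Phf10, which encodes a subunit of the BAF chromatin remodelling complex, is shown as an example because its window had the highest GC of the 4, 87.0%. The 250 bases before its transcript start are read 5′ to 3′ on the minus strand, and capitals mark CCGG, each copy of which was unlisted in both libraries.
Phf10 promoter, chr17:14961261-14961510, minus strand: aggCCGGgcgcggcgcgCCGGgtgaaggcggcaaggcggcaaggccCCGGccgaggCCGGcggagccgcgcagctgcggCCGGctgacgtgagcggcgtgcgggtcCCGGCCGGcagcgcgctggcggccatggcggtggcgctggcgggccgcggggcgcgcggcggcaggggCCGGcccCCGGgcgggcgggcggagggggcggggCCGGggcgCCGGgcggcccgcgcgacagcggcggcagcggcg
The desert around it ran from the CCGG at 14957445, inside the Phf10 gene body, to the CCGG at 15053258. Its only desert site, at position 14987592, had 6 counts in the D4 library and was unlisted in the UD library.

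As a whole, deserts held fewer bases of gene bodies than the genome span. Gene bodies of the RefSeq annotation covered 32.5% of desert bases against 49.4% of the whole span, and bodies of protein-coding genes covered 23.0% against 40.9%. No gene body touched 1253 deserts (45.9%). Of the desert sites, 33.1% lay in a gene body and 23.4% in the body of a protein-coding gene. The corresponding shares were 59.9% and 51.4% for sites 1001 to 10000 bp from CCGG, and 66.2% and 58.2% for all listed CCAGG and CCTGG sites. By desert length, from the shortest class to the longest, the share of sites in a gene body was 35.6%, 31.8%, 26.7%, 55.7% and 16.7%, the last of only 12 sites. Of the 63 sites more than 50000 bp from CCGG, 49.2% lay in a gene body and 15.9% in that of a protein-coding gene. Exons and introns were not distinguished, because the gene table gives only the ends of each gene.

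Each gene family examined lay in long CCGG gaps with a larger share of its bases than genes in general. Of the bases in all gene bodies, 12.3% lay in CCGG gaps over 20000 bp and 3.23% in deserts. For the Skint family, which encodes butyrophilin-like proteins of the skin and thymus, these shares were 91.3% and 32.7%. For Mup genes, which encode the urinary pheromone-binding proteins, they were 90.2% and 17.1%. Vmn2r and Vmn1r genes, which encode vomeronasal receptors, had 55.8% and 45.9% of their bases in long gaps and 19.9% and 15.7% in deserts. Olfactory receptor genes (Olfr) had 43.2% and 16.2%, natural killer receptor genes (Klr) 49.7% and 10.5%, UDP-glucuronosyltransferase genes (Ugt) 43.7% and 16.6%, and Speer genes 39.6% and 12.5%. Zinc finger genes named Zfp, with 18.3% and 7.0%, were nearer to all genes, and the Defa and Defb defensin genes, with 14.7% and 3.82%, nearer still. Families with long genes also exceeded all genes in long gaps, among them Ctnna (alpha-catenins) with 32.1%, Lrp (lipoprotein receptors) with 31.6%, Gri with 26.2%, Cdh (cadherins) with 25.8% and Gabr (GABA receptor subunits) with 25.2%. Their shares in deserts, 2.57% for Ctnna, 5.09% for Lrp, 3.07% for Gri, 5.79% for Cdh and 6.47% for Gabr, lay on both sides of the 3.23% of all genes. Cyp genes (cytochromes P450) had 23.7% and 3.46% and Serpin genes (protease inhibitors) 18.8% and 4.5%. These shares are given without a test.

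**Figure D3:**
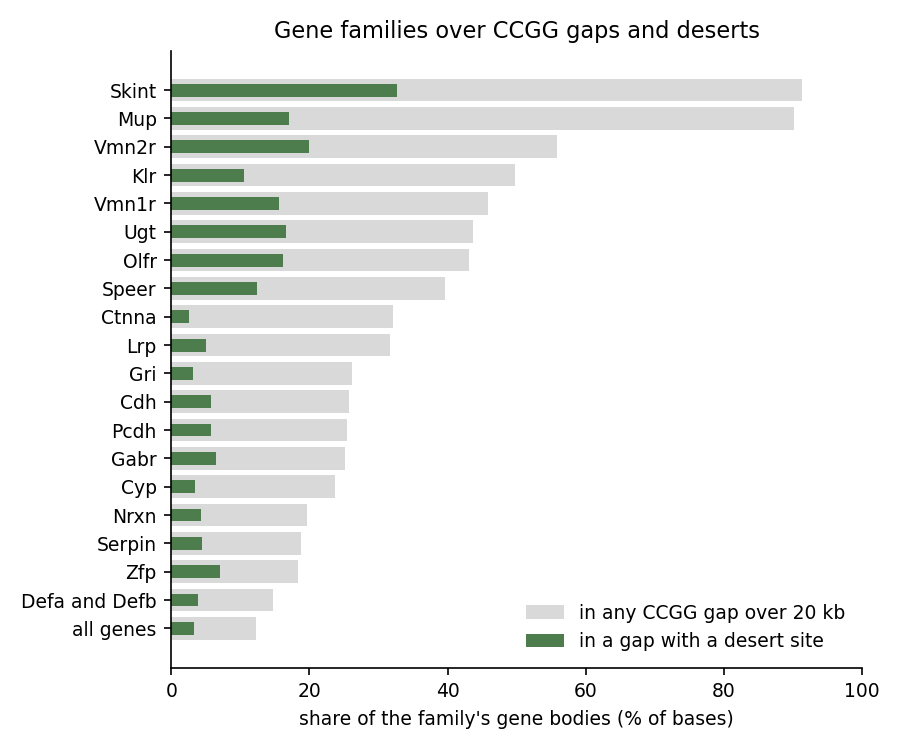
Share of the bases in gene bodies (percent) that lay in any CCGG gap over 20 kb (grey) and in a gap with a desert site (green), for the gene families listed and for all genes. Skint and Mup exceed 90% in grey, all genes reach 12.3%, and the green bars run from 2.57% for Ctnna to 32.7% for Skint.

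Over all genes, the parts of gene bodies inside deserts held 34.6 desert sites per megabase, 1330 in all, with 4803 counts in UD and 10082 in D4. These densities count all gene bases between the flanking CCGG positions of gaps that held a site. They cannot be compared with the densities above, which count bases more than 10000 bp from CCGG in all gaps. The numbers for single families were small. Vmn2r genes held 16 desert sites, 7 listed in UD and 13 in D4, with 50 and 131 counts, or 15.6 sites per megabase. Olfr genes held 19, with 111 and 147 counts, or 48.3 per megabase. Zfp genes held 24, with 51 and 186 counts, or 26.0 per megabase. Vmn1r genes touched 21 deserts and held no listed site. Among genes of long neuronal loci, Gri genes (ionotropic glutamate receptor subunits) held 7 sites with 7 and 56 counts, and Nrxn genes (neurexins, synaptic adhesion proteins) 7 sites with 5 and 38 counts. The UD library listed only 1 site of each of these families, and the D4 library 7 and 6. All family counts are listed counts, and each unlisted site could hold up to 4 more. Pcdh genes (protocadherins) held 7 sites with 28 and 40 counts. More listed counts in D4 than in UD was also the pattern over all genes.

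Desert sites had low counts in both libraries and more of them in the D4 library. The UD library listed 1629 and the D4 library 3203, and 809 were in both. The median listed count was 7 in each library, and 75.8% and 72.9% of listed sites had fewer than 10 counts. The highest count was 112 in UD and 74 in D4. The summed count over both libraries had a lowest value of 5, a median of 7 and a highest value of 166, and 96 sites reached 40. CCAGG and CCTGG were listed alike, 1968 and 2055 sites.

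Together the desert sites had 13986 counts in UD and 29486 in D4, levels of 838 and 1877 per 1000000 CCGG counts. The D4 level was 2.24-fold higher, a log2 ratio of 1.16 (95% exact binomial interval 1.13 to 1.19, for counting error only). The size of this ratio depends on sites that 1 library did not list. If each unlisted site is given 4 counts, the most that the minimum allows, the log2 ratio is 0.56, or 1.48-fold, with D4 higher. For the 809 shared sites alone, summed counts gave 0.56 as well. The same measures at 1001 to 10000 bp from CCGG were 2.00-fold (log2 1.00) for listed counts and 0.53 with unlisted sites given 4 counts, close to the desert values. Over all CCAGG and CCTGG sites they were 1.53-fold (0.62) and 0.40. Under scaling by the CCAGG and CCTGG totals in place of the CCGG totals the log2 ratio over all desert sites was 0.54 for listed counts and -0.056 with unlisted sites given 4 counts. Over all desert sites the direction therefore depended on the scaling and on the unlisted sites together. This scaling shifts each log2 ratio by -0.62, more than the 0.56 of the 809 shared sites. For these shared sites the scaling alone would reverse the direction. The share of the D4 library's desert sites that were also listed in the UD library was 25.3%, against 30.4% at 1001 to 10000 bp and 63.1% within 100 bp. The reverse share was 49.7% in deserts, 53.8% at 1001 to 10000 bp and 70.9% within 100 bp.

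**Figure D4:**
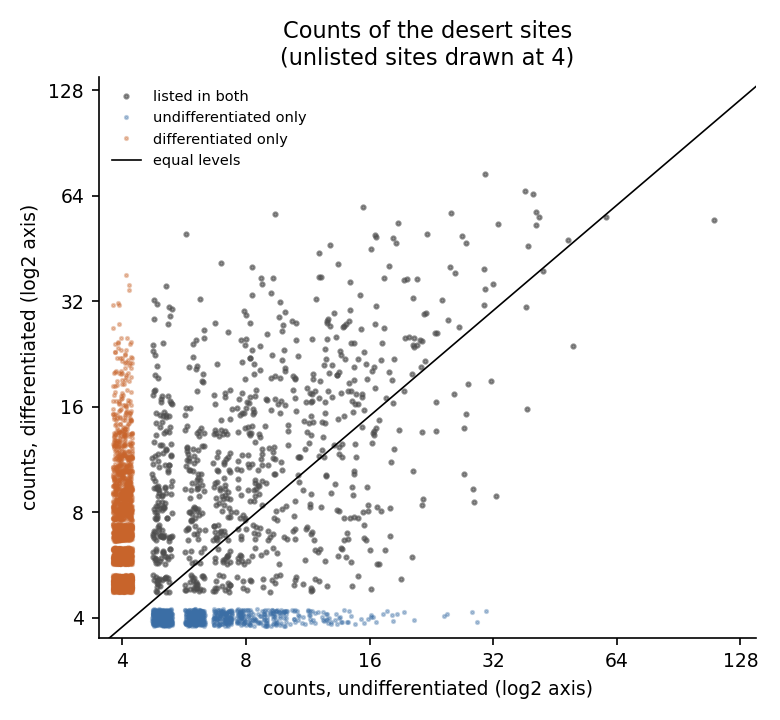
Counts of each of the 4023 desert sites in the UD library (x) and the D4 library (y) on log2 axes, with sites unlisted in 1 library drawn at 4 counts and a small random offset to separate points. The line marks equal levels per CCGG count. The 2394 sites of the D4 library alone outnumber the 820 of the UD library alone, and most of the 809 shared sites lie above the line. The CCAGG and CCTGG totals would shift each log2 ratio by -0.62, which puts the median shared site below equal levels.

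Site by site, the ratio was taken where both counts summed to 10 or more after an unlisted site was given 4 counts. This left 2958 of the 4023 desert sites. Of these, 987 (33.4%) were at least 2-fold higher in the D4 library, where 30.1% of all CCAGG and CCTGG sites of chromosomes 1 to 19 were, and 179 (6.05%) were at least 2-fold lower, against 9.42%. These shares lie near the background. Of the sites past 2-fold, 84.6% were higher with the CCGG totals, 72.8% with the divisors behind the deposited RPM values, 73.7% with the median ratio of CCGG sites, and 32.5% with the CCAGG and CCTGG totals, so the split depended on the scaling. A site that reached 10 only through its count in 1 library could hardly have a ratio near 0, so that these counts describe and do not support.

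The ratio, relative to the CCGG totals, was also taken within classes of summed count. With unlisted sites given 4 counts, the median log2 ratio at 20 to 39 counts was 0.98 in deserts, 0.89 at 1001 to 10000 bp from CCGG and 0.57 over all such sites. At 40 counts or more, with 98 desert sites, it was 0.85, 0.82 and 0.44. Below 20 counts the median was set by the 4 counts given to unlisted sites and is not compared. Among the 809 desert sites listed in both libraries the median log2 ratio on this scale was 0.50 (interquartile range -0.06 to 0.99), and 598 were above 0. The CCAGG and CCTGG totals would shift every ratio by -0.62, which puts this median below 0. The standard deviation of the ratios of these 809 sites was 0.83, and counting error alone, taken from the counts of each site, would give 0.69.

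Counted over whole deserts, 653 of 2239 deserts (29.2%) that reached 10 counts after each unlisted site was given 4 were at least 2-fold higher in the D4 library, where 24.2% of all CCGG gaps with a CCAGG or CCTGG site were. At least 2-fold lower were 91 deserts (4.06%), against 6.67% of all such gaps. With the CCAGG and CCTGG totals as the scale the split reversed, with 189 deserts past 2-fold upward and 370 downward. Of the deserts, 864 had listed sites of both libraries, 1435 (52.4%) of the D4 library alone and 437 (15.97%) of the UD library alone. Over all CCGG gaps with a CCAGG or CCTGG site these shares were 32.3% and 14.1%. Of 180 deserts with 3 or more sites after joining runs within 32 bp, all sites were higher in the D4 library in 68 (37.8%), all were lower in 5 (2.78%) and 107 were mixed. Over all CCGG gaps with 3 or more such sites the shares were 27.5% and 2.97%. With the CCAGG and CCTGG totals as the scale they were 11.7% and 13.9% in deserts, and 7.25% and 14.0% over all such gaps. At a site listed in 1 library alone, the 4 counts given to the other library can set this direction.

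Relative to the CCGG totals, D4 was higher on all 19 chromosomes. The log2 ratio of summed listed counts ran from 0.83 on chromosome 7 (0.73 to 0.94) and 0.88 on chromosome 9 (0.75 to 1.02) to 1.40 on chromosome 3 (1.29 to 1.52) and 1.41 on chromosome 13 (1.29 to 1.54). With unlisted sites given 4 counts it ran from 0.43 on chromosome 7 to 0.66 on chromosome 3. Relative to the CCAGG and CCTGG totals, listed counts gave 0.21 to 0.79, while with unlisted sites given 4 counts the values ran from -0.19 to 0.04 and 15 of 19 chromosomes were below 0. By desert length, relative to the CCGG totals, the log2 ratio was 1.21 for deserts of 20001 to 30000 bp, 1.22 at 30001 to 50000 bp, 1.05 at 50001 to 100000 bp and 0.81 at 100001 to 500000 bp (0.69 to 0.92). The 12 sites of the 7 deserts over 500000 bp gave 0.91 (0.31 to 1.52). With unlisted sites given 4 counts the first 4 values lay between 0.47 and 0.61, and the last was 0.42. By distance from CCGG it was 1.21 at 10001 to 15000 bp, 1.15 at 15001 to 20000 bp, 0.97 at 20001 to 50000 bp and 1.17 at more than 50000 bp. These were 0.58, 0.54, 0.48 and 0.73 with unlisted sites given 4 counts.

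**Figure D5:**
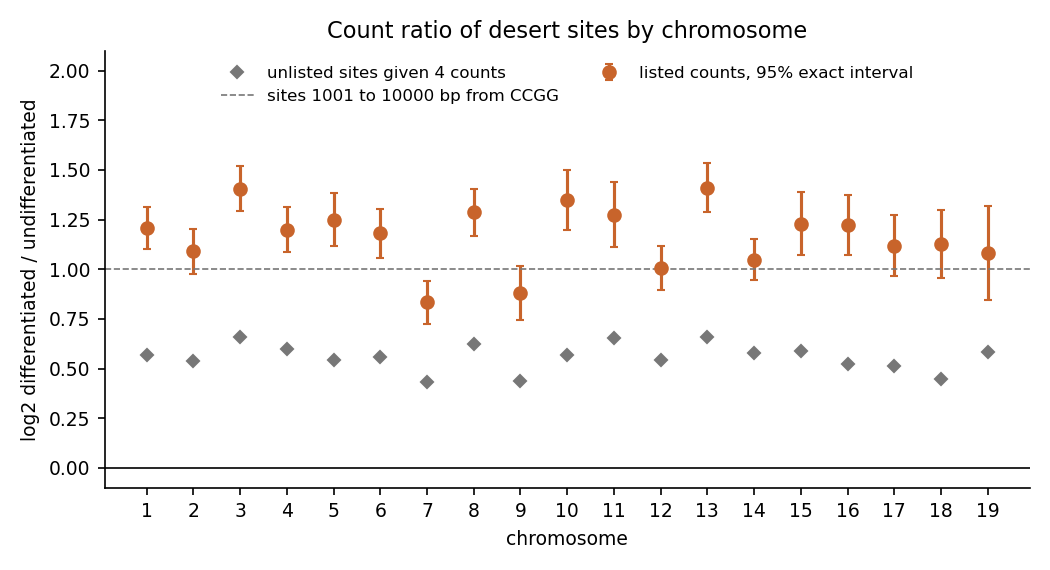
Log2 ratio of the summed counts of desert sites, differentiated over undifferentiated, relative to the CCGG totals, for each of chromosomes 1 to 19. Circles are listed counts with 95% exact binomial intervals for counting error only, diamonds give unlisted sites 4 counts, and the dashed line marks sites 1001 to 10000 bp from CCGG at 1.00. On this scale all circles and diamonds lie above 0, with chromosomes 7 and 9 lowest among the circles, while relative to the CCAGG and CCTGG totals 15 of the 19 diamonds would lie below 0.

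The longest deserts lay over clusters of gene copies and held few sites with few counts. The longest ran over 1625552 bp of chromosome 2, between the CCGG positions 175174756 and 176800309, and covered 30 annotated genes including the zinc finger genes Zfp965, Zfp966, Zfp967, Zfp968 and Zfp973. Its 2 sites had 6 and 7 counts in the UD library and were unlisted in the D4 library. The next, 879466 bp on chromosome 14 between 3156050 and 4035517, covered 37 genes, most of them named only by Gm numbers. Its 2 sites had 11 and 10 counts in the D4 library and were unlisted in the other. The third, 795367 bp on chromosome 7 between 20448323 and 21243691, lay over a cluster of Vmn1r genes. One of its 3 sites was listed in both libraries, with 5 and 15 counts, and the others had 7 and 5 counts in the D4 library alone. With unlisted sites given 4 counts the log2 ratio of the longest was -0.61 (-2.09 to 0.77), so no direction could be given to it at this depth.

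The desert with the most sites lay near the start of the assembled chromosome 6, between 3121320 and 3182869, with 25 sites and only the pseudogene Vmn1r261. Every one of the 25 sites read CCTGG and none exceeded 12 counts. In 14 of the 24 spacings between neighbouring sites the distance was a multiple of 22 bp, and in 6 it was exactly 22 bp, a spacing noticed after the positions were seen. The sites summed to 105 counts in UD and 76 in D4, and 4 of the 25 were listed in both. The log2 ratio of listed counts was -0.38 (-0.82 to 0.06), and -0.01 with unlisted sites given 4 counts, most sites being listed in 1 library alone.

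The next desert by number of sites, with 10, lay within Cntnap5a on chromosome 1, between 116344359 and 116412155. Cntnap5a encodes a neurexin-family adhesion protein. Its sites had 51 counts in UD and 19 in D4, from 8 and 3 listed sites, and 3 sites within 18 bp had 8 counts each in the UD library. The log2 ratio of listed counts was -1.34 (-2.18 to -0.55), and -0.24 (-0.83 to 0.34) with unlisted sites given 4 counts, so no direction could be given to it once unlisted sites were filled. A desert of 278082 bp on chromosome 8, between 20018896 and 20296979, held 9 sites with 55 and 77 counts. Its highest site, at 20260817 in Gm40468, had 38 counts in the D4 library and was unlisted in the UD library. A site at 20267854 in the same desert had 19 counts in the UD library and was unlisted in the other.

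By summed count the chromosome 6 desert, with its many low sites, came behind a pair of deserts that each rested mostly on 2 neighbouring positions. A desert without genes on chromosome 8, between 43835201 and 43879543, had 78 counts in UD and 134 in D4. These came mostly from positions 43850136 and 43850145, which are 9 bp apart and had 39 and 63 counts each, so that 1 read can cover both. On chromosome 4, positions 97522415 and 97522424 in the pseudogene Gm12696 were likewise 9 bp apart and had 41 and 55 counts each. Among deserts with a summed count of at least 100, the highest log2 ratio with unlisted sites given 4 counts was 1.44, on chromosome 19 between 26891411 and 26924992. Its listed counts of 39 and 110 gave 1.58 (1.04 to 2.15). Of its 5 sites, 4 were listed in both libraries, with 12 and 15, 9 and 21, 10 and 21, and 8 and 42 counts, and the fifth had 11 counts in the D4 library alone. All 5 were thus higher in the D4 library.

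The next highest was a desert of 132606 bp in the Snhg14 gene body on chromosome 7, between 59726083 and 59858690, with listed counts of 39 and 96 and a log2 ratio of 1.39 (0.84 to 1.96), or 1.25 with unlisted sites given 4 counts. Snhg14 is the host transcript of repeated small nucleolar RNA genes in the imprinted Prader-Willi region. Its site at 59779515 had 31 and 74 counts. Another desert of Snhg14, between 59453077 and 59654047, had a site at 59499239 with 52 and 23 counts, a log2 ratio of -1.09 (-1.87 to -0.36). High sites of the same gene body thus differed in opposite directions. The desert before the first CCGG position of chromosome 9, at 3054967, held 7 sites, all CCAGG, with 33 and 107 listed counts and a log2 ratio of 1.78 (1.21 to 2.39), or 1.21 with unlisted sites given 4 counts. Among the deserts with at least 100 counts, the lowest ratios were -0.96 (-1.46 to -0.48) on chromosome 7 between 15424070 and 15482945, -0.11 (-0.62 to 0.40) on chromosome 17 between 7975757 and 8021363, and that of the chromosome 6 desert.

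The chromosome 7 desert rested on the highest single site of all, a CCTGG at 15455317 in the pseudogene Obox4-ps29, with 112 counts in UD and 54 in D4. Obox4 pseudogenes are copies of an oocyte-specific homeobox gene and stand in a row there. The second highest site, a CCAGG at 8001836 of chromosome 17 in the long non-coding RNA gene Gm1604a, had 59 and 55 counts. Its log2 ratio was -0.01 (-0.57 to 0.54). These highest sites thus had no common direction.

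Among the 96 sites whose listed counts summed to 40 or more, the largest ratio was at 17982985 of chromosome 7, a CCAGG 4429 bp from Ceacam11, with 6 and 51 counts and a log2 ratio of 3.17 (1.95 to 4.69). It was 2.75 (1.73 to 3.95) at 43138764 of chromosome 3, with 9 and 57 counts, and 2.57 (1.39 to 3.97) at 74482377 of chromosome 8, with 7 and 39 counts. Both lay between genes, more than 100 kb from the nearest. The lowest ratios were -1.79 (-3.04 to -0.69) at 177238400 of chromosome 2, with 33 and 9 counts, and -1.22 (-2.19 to -0.31) at 139423313 of chromosome 2, with 37 and 15 counts. The Snhg14 site at 59499239 came next. Each of these 6 sites was listed in both libraries.

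Some gene bodies gathered desert sites from several deserts, and these genes were picked after their values were seen. Csmd3 on chromosome 15, which encodes a large membrane protein of neurons, held 12 sites in 7 deserts, with 12 counts in UD and 101 in D4. All 12 were listed in the D4 library and 2 in the UD library. Macrod2 on chromosome 2, which encodes an ADP-ribose hydrolase, held 9 sites with 18 and 78 counts. Dpp10 on chromosome 1, which encodes a potassium channel accessory protein, held 11 sites with 17 and 69 counts. Lama2 on chromosome 10, which encodes a laminin chain of basement membranes, held 7 sites with 47 counts, and Spock3 on chromosome 8, which encodes an extracellular proteoglycan, held 6 sites with 54 counts. None of the sites of Lama2 and Spock3 was listed in the UD library. Of all 4023 desert sites, 2394 were likewise listed in the D4 library alone. Among genes with at least 6 desert sites, Cntnap5a and Nrg3, which encodes a neuregulin, were the only ones with more counts in the UD library, with 58 and 28 counts over 11 sites and 29 and 12 counts over 6 sites. With unlisted sites given 4 counts the log2 ratio was 1.05 for Csmd3, 1.26 for Spock3, 0.83 for Lama2, 0.98 for Macrod2, 0.55 for Dpp10, -0.15 for Cntnap5a and -0.15 for Nrg3. Of the other genes with at least 6 desert sites, Slc9a3 had 1.15, Tcra 0.92, Igh 0.85, Dnah7a 0.71 and Agbl4 0.65. Lower were Snhg14 with 0.42, Fhit with 0.26, Mdga2 with 0.22 and Ptprd with 0.06.

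Levels were scaled to the CCGG totals, which sets the ratio over all CCGG positions near 0, so the flanks of the deserts are described against all CCGG positions and not against the desert sites. The 5387 flanking positions had 94630 counts in UD and 87373 in D4, a log2 ratio of -0.03 (-0.04 to -0.01), against 0.00 over all CCGG positions. For the 3401 flanks listed in both libraries it was 0.11, against 0.07 for all CCGG positions listed in both. Over all 5387 flanks the median listed count was 16 in UD and 15 in D4, against 19 and 18 over all CCGG positions of these chromosomes. Listed in both libraries were 63.1% of the flanks and 70.2% of all CCGG positions. Of the 5044 flanks whose counts summed to 10 or more with unlisted positions given 4, 17.7% were past 2-fold upward and 26.3% past 2-fold downward in the D4 library, against 18.9% and 21.7% of all CCGG positions.

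At the limit of 10000 bp, the 2 nearest sites inside lay 10002 bp from CCGG. One, at 62236079 of chromosome 2 in Slc4a10, had 5 and 22 counts, and the other, at 111668534 of chromosome 3, had 5 counts in the D4 library alone. The 2 nearest outside lay 9999 bp away. One, at 143053829 of chromosome 1, had 5 counts in the D4 library alone, and the other, at 3983627 of chromosome 7, had 11 counts in the UD library alone.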

How the data were processed

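MethylRAD libraries of undifferentiated and day 4 differentiated F9 cells were compared, 1 per group as labelled. The read counts per site were deposited by the authors with a minimum of 5, and each table lists chromosome, position, alignment type and motif. The deposited column headed RPM was treated as a score, because it sums to more than 1000000. FastQC 0.11.3, Bowtie2 2.3.3 and GRCm38 are named in the submitters' processing notes. How reads that match several places were handled is not given in the sources used here.

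Distances to listed CCGG positions, intervals and ratios were computed in Python 3.11.15 with numpy 2.4.6, scipy 1.17.1 and pandas 2.3.3, and checked on simulated data. Levels are counts per 1000000 CCGG counts. Unlisted sites were given 4 counts where stated. No test of a difference was made. Exact binomial intervals cover counting error only, since PCR copies are not independent molecules. Gene bodies and promoter sequences are those of RefSeq GRCm38.p6.

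Named deserts were the 3 longest, the 3 with most sites, the 3 with the highest summed count, and the 3 highest and lowest ratios at 100 counts or more. Named sites were the 5 with the highest summed count and the 3 highest and lowest ratios at 40 counts or more. Members, gene families and rules were chosen with earlier results of these data known. The planned counts of motifs, base composition and copies of a window over whole deserts were limited to promoter windows, since no genome sequence was used here.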

Additional observations from a re-analysis of the deposited data

How the results depend on the processing

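The log2 ratio of desert counts, 1.16, stayed above 0 under each alternative that changed 1 choice. It was 1.13 at a limit of 5000 bp, 1.00 at 20000 bp, 1.06 for sites with at least 10 counts, 1.11 with full-match alignments, 1.23 without the 100 highest sites and 0.56 for sites in both libraries. Scaling gave 0.94 with the RPM divisors, 1.02 with all listed counts, 1.01 with the median ratio of CCGG sites and 0.54 with the CCAGG and CCTGG totals. With unlisted sites given 4 counts, an alternative chosen after seeing the data, it was 0.56, and with the CCAGG and CCTGG totals as well, also chosen after seeing the data, it reversed to -0.056.

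Numbers of sites, deserts, sites higher and lower, and deserts higher and lower move by construction when fewer or more positions enter. At 5000 bp they were 16064, 10718, 4075, 735, 2578 and 375. At 20000 bp they were 576, 388, 137, 30, 91 and 13. With CCGG positions of at least 10 counts they were 7871, 4908, 1963, 353, 1136 and 163. With sites of at least 10 counts there were 1042 sites, 884 deserts and 615 sites higher. Sites in both libraries gave 200 sites higher and 36 lower, 177 deserts higher and 30 lower. A summed count of 40 gave 45, 3, 86 and 6 in that order, and a 4-fold threshold gave 118, 12, 68 and 7. With the CCAGG and CCTGG totals more sites were lower than higher, 305 higher and 634 lower, and 189 deserts higher and 370 lower. Deserts lower, 91, were 150 with the RPM divisors, 141 with all listed counts, 143 with the median ratio and 174 with unlisted sites as 0 and 1 count added to both. The ratio of flanking CCGG positions, -0.03, was 0.11 for those in both libraries. No paired analysis was possible because each group has 1 library, and for the same reason no library could be left out. The median listed site had 7 counts, which limits what a single site can show.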
